A study of Mus musculus with 18 samples.

Results

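The comparison described here sets the difference between CD29-sorted cells of mouse mammary tumors against the basal-luminal difference of normal mammary epithelium, gene by gene. Its members are 10 of the 18 arrays of the series, chosen by their titles. Tumors 1, 2 and 7 each gave 1 array of CD29HCD24H cells (high staining for both surface proteins) and 1 array of CD29LCD24H cells (low CD29, high CD24). Normal mammary epithelial cells of preparations 1 and 2 each gave 1 array of CD29HCD24P cells (CD29 high, CD24 positive) and 1 array of CD29PCD24H cells (CD29 positive, CD24 high). The gene Itgb1 encodes CD29, a beta chain of the integrins that bind matrix, and Cd24a encodes CD24, a small surface glycoprotein. The other 8 arrays hold the CD24 low fractions and a reference RNA and do not enter the comparison.

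The labels place tumors 1 and 2 at transplantation generation 1 and give no generation for tumor 7. Strain, genotype and age are not in the labels; as background, the study is known to have used mammary tumors that lack p53, in which CD29HCD24H cells were described as tumor-initiating. No other treatment is stated for any group. Whether the preparations, or the tumors, came from separate animals is not stated, so the p-values below measure the spread between these samples. The gates were not cut alike: both tumor gates are CD24 high and differ in CD29, whereas the normal gates differ in both proteins.

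The mammary duct has an outer basal, or myoepithelial, layer that contracts to eject milk, rests on the basement membrane and makes the keratins Krt5 and Krt14. The inner luminal layer makes Krt8, Krt18 and tight junctions and holds both cells that carry hormone receptors and progenitors of the milk-secreting alveoli. CD29 high, CD24 positive sorting of normal tissue collects mostly basal cells, including cells that can regrow a gland, and CD24 high sorting collects luminal cells.

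Levels are given as log2(intensity + 32), so that a difference of 1 is a 2-fold ratio well above the offset and the lowest possible level is 5. A gate difference is the CD29 high array minus its CD29 low or CD29 positive partner from the same tumor or preparation, on that log2 scale. The difference of differences is the mean tumor gate difference minus the mean normal gate difference: it lies below 0 for a basal gene, and above 0 for a luminal gene, whose gate difference is smaller in tumors. All arrays had the same trimmed mean intensity, with medians from 71.6 to 104.2. The ratio of the 3' to the 5' actin control probe sets, which rises as RNA is degraded or copied incompletely, was 23.2 to 72.5 on the tumor arrays and 3.08 to 24.7 on the normal arrays; its part in the results was not tested. The number of arrays limits the precision throughout.

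The marker genes of both layers followed the labels in normal cells. Krt5 stood at 13.74 and 13.76 in normal CD29HCD24P cells and at 6.44 and 6.72 in CD29PCD24H cells. Ehf, an epithelial factor of the ETS family, stood at 5.39 and 5.14 in CD29HCD24P cells, near the lowest possible level, and at 10.73 and 10.37 in CD29PCD24H cells. Of the 10915 genes tested, 824 (7.55%) differed between the normal gates at an adjusted p under 0.05 (limma with Benjamini-Hochberg adjustment), 437 (4%) higher and 387 (3.55%) lower in CD29HCD24P cells. Their median absolute gate difference was 2.70 in normal cells.

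Between the tumor gates the same fit called 0 genes, with 415 at an unadjusted p under 0.05. The difference of differences was past the threshold in 250 genes (2.29%), 91 above 0 (0.834%) and 159 below 0 (1.46%), with 1479 at an unadjusted p under 0.05. In all 250 the difference of differences was opposite in sign to the normal gate difference, and the 3 tumor values did not overlap the 2 preparation values; over all genes tested 43.8% did not overlap. The normal arrays enter both contrasts, so these facts are a description and not separate evidence.

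Arrays of 1 tumor deviated together from their group means (correlations of 0.614 to 0.726), whereas arrays of 1 preparation hardly did (0.0632). The fit with the tumor or preparation as a replicate block called 2322 genes (21.3%) between the normal gates, 1136 higher (10.4%) and 1186 lower (10.9%), and 7 genes (0.0641%) between the tumor gates, 1 above 0 (0.00916%) and 6 below 0 (0.055%). It called 1512 genes (13.9%) in the difference of differences, 671 above 0 (6.15%) and 841 below 0 (7.7%), among them all 250 of the unblocked fit. Of the 824 genes of the unblocked normal contrast, 720 passed in the blocked difference of differences. Over those 824 genes the median standard error of the difference of differences was 0.647 without the block and 0.476 with it. The unblocked counts rested on the few normal arrays. Without CD29HCD24P array 1 or 2 the count of 250 fell to 19 or 8, and without CD29PCD24H array 1 or 2 to 20 or 39; the normal count of 824 fell to 239, 185, 244 and 278 in the same order. Without either whole preparation the unblocked counts were 0 and 1, whereas the blocked fit called 665 genes without preparation 1 and 817 without preparation 2, and 1051 and 1136 genes between the normal gates. With 1 preparation left the normal gate difference has no replicate, and the tumor pairs alone give the spread in the blocked fit, so that the normal cells are assumed to vary like the tumors and these counts do not check the normal difference. Without both arrays of tumor 7 the unblocked counts rose to 436 and 1384. The 7 genes of the blocked tumor contrast became 1 without tumor 2, and 38 without either preparation.

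**Figure D1:**
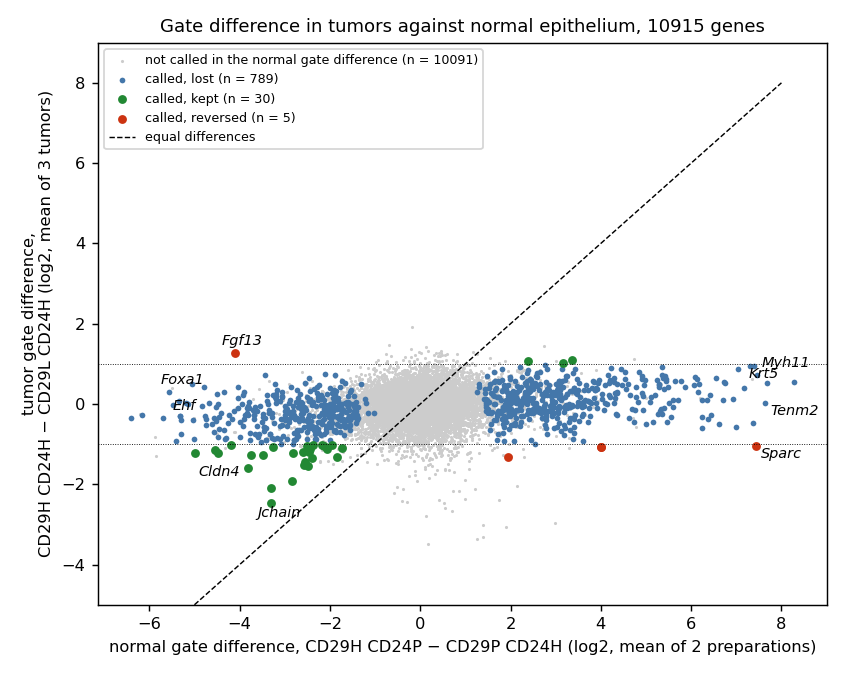
Each point is 1 of the 10915 genes, with its normal gate difference (log2, mean of 2 preparations) on the x axis and its tumor gate difference (log2, mean of 3 tumors) on the y axis; coloured points are the 824 genes called between the normal gates and dotted lines mark tumor differences of 1 and -1 and the dashed line equal differences. The coloured points spread widely along x, with Myl9 at 8.28 and Upk3a at -6.16, and lie between -2.46 (Jchain) and 1.26 (Fgf13) along y, with 30 kept, 789 lost and 5 reversed.

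The 824 genes were sorted by their mean tumor gate difference: kept where it was at least 1 in the normal direction, reversed where it was at least 1 in the opposite direction, and lost otherwise. By this rule 789 genes (95.8%) lost the difference, 30 kept it and 5 reversed it. Among the 2322 genes that the blocked fit called between the normal gates, 2244 lost it, 60 kept it and 18 reversed it. Of the 437 basal-side genes 3 were kept, 430 lost and 4 reversed, and of the 387 luminal-side genes 27 were kept, 359 lost and 1 reversed. Over all genes tested a mean tumor difference of 1 or more was seen in 0.568% and of -1 or less in 2.15%. The median tumor difference of the 824, turned to the normal sign, was 0.20. Just outside and inside the kept class lay Acss1 with a turned tumor difference of 0.99 and Rragd with 1.01. Read in each tumor by itself, 80.7% of the genes were lost in tumor 1, 85.3% in tumor 2 and 86.8% in tumor 7, and 17.6%, 9.10% and 7.40% were kept. Leaving out an array changed these shares: without the CD29HCD24H array of tumor 7 the lost share was 84.5% and the kept share 14.8%, and without the CD29LCD24H array of tumor 2 they were 87.8% and 10.8%. The kept share was also over 1.5 times as high without the CD29LCD24H array of tumor 1 (5.85%) or tumor 7 (6.07%), and without tumor 2 (7.29%) or tumor 7 (7.15%). It was 1.80% without the second CD29PCD24H array and 2.16% without the second CD29HCD24P array. The reversed share was 3.35% without the CD29HCD24H array of tumor 1, 3.15% without the CD29LCD24H array of tumor 7, 2.02% without the CD29HCD24H array of tumor 2, 1.90% without tumor 1 and 1.44% without the second CD29PCD24H array.

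The normal axis was also read in samples that had not chosen its genes. In preparation 1, 972 genes had a gate difference of 2 or more in size. Turned to the sign they had there, their median was 2.73 in preparation 2, and 94.3% kept a difference of at least 1. The same genes had a median of 0.38 in tumor 1, 0.14 in tumor 2 and -0.01 in tumor 7, and 19.0%, 12.0% and 7.61% kept a difference of at least 1. Chosen in preparation 2 instead, 966 genes had a median of 2.72 in preparation 1, and of 0.43, 0.21 and 0.06 in tumors 1, 2 and 7. Across all 10915 genes, which are not independent replicates, the gate differences of the preparations correlated at r = 0.858, those of a tumor and a preparation at -0.088 to 0.277, and those of a pair of tumors at 0.083 to 0.276. These are descriptions, since arrays share a platform and probe sets. The gate difference varied less over genes in tumors, with a standard deviation of 0.578, 0.671 and 0.730 in tumors 1, 2 and 7 against 1.25 and 1.23 in the preparations.

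**Figure D2:**
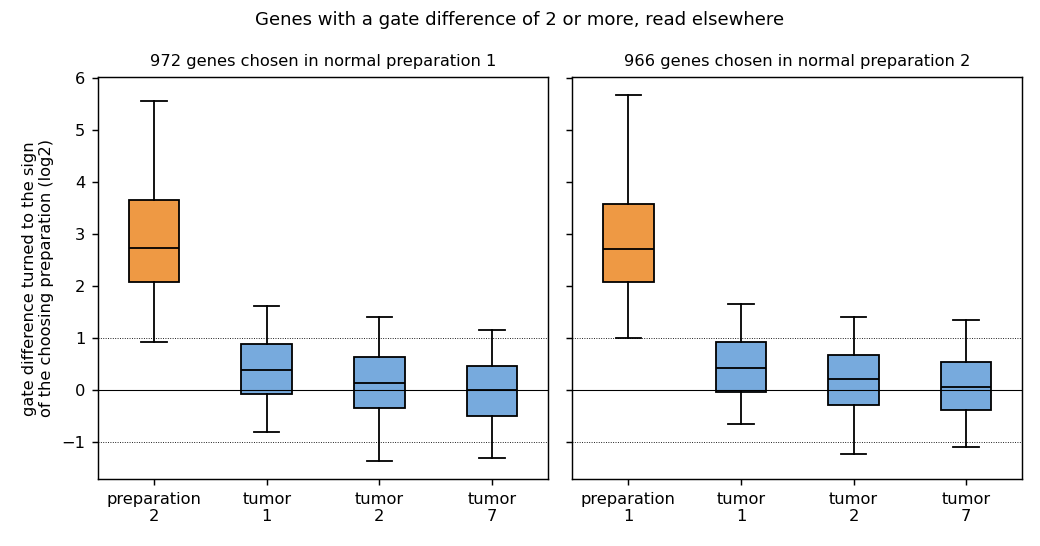
Boxes show the gate difference (log2, y axis) of the 972 genes chosen in normal preparation 1 (left) and the 966 chosen in preparation 2 (right), turned to the sign of the choosing preparation and read in the other preparation and in each tumor; lines in the boxes are medians, boxes are quartiles and whiskers leave out the outer 5% of genes at each end. The preparation that did not choose the genes has a median near 2.7 and the tumors have medians from -0.01 to 0.43.

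Krt5, the keratin that pairs with Krt14 in basal cells, stood at 11.54, 11.15 and 6.67 in CD29HCD24H cells of tumors 1, 2 and 7 and at 11.27, 10.30 and 6.56 in CD29LCD24H cells. Both gates of tumors 1 and 2 thus lay between the normal levels, both gates of tumor 7 lay at the normal luminal level, and the gates of a tumor lay close together. The gate difference of Krt5 was 7.30 and 7.04 in the preparations and 0.27, 0.85 and 0.11 in the tumors. Its difference of differences was -6.76 ± 2.11 (SE, adjusted p = 0.155) without the block and -6.76 ± 0.420 (SE, adjusted p = 4.93e-07) with it. Krt5 therefore passed only where the level of each tumor was taken out.

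Ehf stood at 11.80, 11.91 and 12.08 in CD29HCD24H cells of tumors 1, 2 and 7 and at 12.51, 12.58 and 11.88 in CD29LCD24H cells. All 6 tumor values were above both normal luminal values, and the tumor gates overlapped. The gate difference of Ehf was -5.35 and -5.23 in the preparations and -0.72, -0.67 and 0.20 in the tumors, and the difference of differences was 4.90 ± 0.49 (SE, adjusted p = 0.0014). The gate difference of Ehf was thus small by its brightest probe set with both gates above the normal high level, and that of Krt5 was small at a level that differed between tumors. Another bright Ehf probe set gave -3.91 and -3.35 in the preparations and -1.34, -0.43 and 0.19 in tumors 1, 2 and 7. A dimmer one gave -2.01 and -2.13, and then -0.10, -0.28 and -0.99. The dimmest ran the other way in normal cells, with 0.84 and 0.79, and then 1.75, -1.12 and 0.22. In the CD24 low tumor fractions, which are not part of the comparison, Krt5 ranged from 5.54 to 11.81 with tumor 7 lowest, and Ehf from 11.47 to 13.43.

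**Figure D3:**
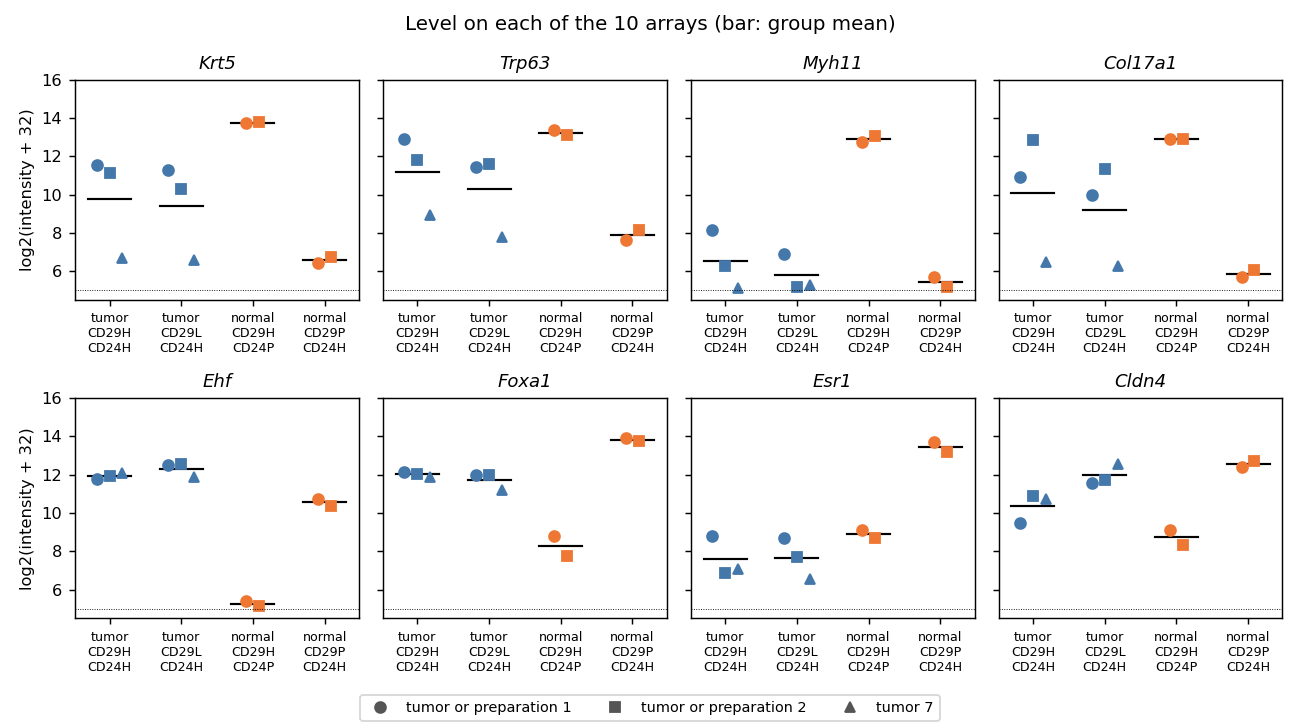
Level of 8 genes, log2(intensity + 32) on the y axis, on each of the 10 arrays by group on the x axis; symbols give the tumor or preparation, bars the group mean and the dotted line the lowest possible level of 5. The normal groups are far apart for every gene shown, the tumor gates overlap for 7 of them, and the CD29HCD24H arrays of Cldn4 all lie below its CD29LCD24H arrays.

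Of 23 basal and myoepithelial genes tested, 18 were higher in normal CD29HCD24P cells and 0 were lower. Of these 23, 8 passed in the difference of differences, all 8 below 0, and 21 did so with the block; Krt6a passed above 0 with the block, and it was the only member whose normal difference was called in the luminal direction there. The list's median gate difference was 6.10 in normal cells and 0.10 in tumors, against -0.02 and -0.02 for all genes tested. For this list and those below, 4% of all genes tested were higher and 3.55% lower in normal CD29HCD24P cells. In the difference of differences 0.834% passed above and 1.46% below 0. With the block these shares were 10.4%, 10.9%, 6.15% and 7.7% in the same order. A list count near these shares is no result about the list. Krt14 stood at 14.13 and 14.20 in normal CD29HCD24P cells and 8.07 and 7.38 in CD29PCD24H cells, and at 11.84, 12.15 and 8.34 in the tumor CD29HCD24H and 12.19, 12.28 and 8.72 in the CD29LCD24H cells. Each tumor thus had slightly less Krt14 in the CD29HCD24H gate, the side where normal cells had more. Another Krt14 probe set gave -0.29, 0.36 and -0.79 in tumors 1, 2 and 7, and a dimmer one -0.35, -0.29 and -0.37. Krt15, a keratin of basal cells, had gate differences of 7.64 and 6.35 in the preparations and -0.54, -0.39 and -0.79 in the tumors, and its difference of differences was -7.57 ± 1.22 (SE, adjusted p = 0.0136). Krt17 had -5.61 ± 1.37 (SE, adjusted p = 0.0677) without the block and passed with it (adjusted p = 1.43e-06).

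The contractile genes all shared 1 direction in normal cells. All 13 tested members were higher in normal CD29HCD24P cells, 7 passed below 0 in the difference of differences and all 13 did with the block; the list's median gate difference was 5.40 in normal cells and 0.10 in tumors. Myh11, the smooth muscle myosin heavy chain, stood at 12.74 and 13.05 in normal CD29HCD24P and 5.71 and 5.14 in CD29PCD24H cells. In tumors 1, 2 and 7 it stood at 8.14, 6.28 and 5.09 in CD29HCD24H cells and at 6.90, 5.17 and 5.27 in CD29LCD24H cells. Every tumor value lay far below the normal basal values, and only tumor 1 was more than 1 above the lowest possible level in both gates. The difference of differences of Myh11 was -6.75 ± 1.13 (SE, adjusted p = 0.0152).

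Myl9, a regulatory myosin light chain, stood at 13.48 and 13.62 in normal CD29HCD24P and 5.28 and 5.25 in CD29PCD24H cells. In CD29HCD24H cells of tumors 1, 2 and 7 it stood at 9.39, 7.88 and 5.43, and in CD29LCD24H cells at 7.97, 7.96 and 5.09. Tumor 7 was at the luminal level in both gates and the other tumors lay between. That gave Myl9 a difference of differences of -7.72 ± 1.52 (SE, adjusted p = 0.0287), the second largest of the genes called below 0. Mylk, the kinase of that light chain, had gate differences of 7.05 and 6.38 in the preparations and 0.93, -0.65 and 0.01 in the tumors, with -6.62 ± 0.982 (SE, adjusted p = 0.00963). Cald1, which encodes caldesmon, is expressed beyond muscle: it stood at 13.28 to 15.14 on the 6 tumor arrays, against normal basal values of 14.90 and 14.72, with -3.26 ± 0.689 (SE, adjusted p = 0.0388). Acta2, the smooth muscle actin, passed only with the block (adjusted p = 8.89e-06, against 0.164 without), and stood at 13.16 and 11.53 in CD29LCD24H and CD29HCD24H cells of tumor 2.

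The promoter of Myl9 is shown as an example, and it was the only window of the contractile list with a CArG box. This box is the binding sequence of serum response factor, which smooth muscle genes are known to use. RefSeq's window of 250 bases before to 50 bases after the start (build GRCm38.p6, chr2:156775214-156775513, plus strand) is given 5′ to 3′, with the CArG box in capitals.
Myl9: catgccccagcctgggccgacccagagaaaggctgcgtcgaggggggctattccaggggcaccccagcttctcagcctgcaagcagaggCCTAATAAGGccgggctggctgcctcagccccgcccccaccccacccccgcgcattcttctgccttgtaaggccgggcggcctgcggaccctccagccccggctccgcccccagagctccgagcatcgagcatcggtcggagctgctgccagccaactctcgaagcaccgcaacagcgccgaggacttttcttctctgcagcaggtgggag
The motif searched was the CArG box alone, which reads the same on both strands. It was found in 535 of 32851 promoter windows (1.63%). Among the 13 windows that 12 of the 15 listed contractile genes had in the table, it was found in 1, that of Myl9 shown here. The basal and myoepithelial list had it in 1 of 17 windows (Cnn2) and the epithelial keratins in 0 of 6. A match is a description of these letters and not a shown site.

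The basement membrane, on which basal cells rest, is built of laminins and collagen IV. Of 15 such genes tested, 10 were higher in normal CD29HCD24P cells, 7 passed below 0 in the difference of differences and 12 did with the block, with a median gate difference of 3.42 in normal cells and 0.14 in tumors. Col4a2, a collagen IV chain, stood at 13.93 and 14.00 in normal CD29HCD24P and 6.96 and 7.11 in CD29PCD24H cells, and at 13.40, 12.55 and 11.16 in the CD29HCD24H and 12.47, 12.53 and 11.70 in the CD29LCD24H cells of tumors 1, 2 and 7. All 6 tumor values lay nearer the normal basal than the normal luminal values, with tumor 7 lowest, and the gates overlapped. The difference of differences was -6.79 ± 0.793 (SE, adjusted p = 0.0035). Lama1, a laminin alpha chain, had lower tumor levels of 5.32 to 7.39 against 11.54 and 11.55 in normal basal cells, and a difference of differences of -5.20 ± 0.797 (SE, adjusted p = 0.0113). Col17a1, the hemidesmosomal collagen, stood at 10.90, 12.83 and 6.46 in CD29HCD24H and 9.99, 11.32 and 6.27 in CD29LCD24H cells, and passed with the block only (adjusted p = 1.43e-06, against 0.28).

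Matrix genes outside the basement membrane were among the largest values. Sparc, a matrix glycoprotein, had gate differences of 8.59 and 6.29 in the preparations and 0.16, -1.98 and -1.31 in the tumors, and its difference of differences of -8.48 ± 1.24 (SE, adjusted p = 0.00953) was the lowest of all genes called. It stood at 13.96 and 14.33 in normal CD29HCD24P and 5.37 and 8.04 in CD29PCD24H cells and at 9.51 to 12.73 on the tumor arrays. Vcan, the proteoglycan versican, had -6.44 ± 0.576 (SE, adjusted p = 0.00116) with tumor levels of 10.33 to 11.83, and Bgn, biglycan, had -6.85 ± 1.30 (SE, adjusted p = 0.025). Stromal cells also make these proteins, and the summed intensity of 17 fibroblast genes was 22555 to 57292 in tumor CD29HCD24H, 17057 to 112953 in tumor CD29LCD24H, 40562 to 42299 in normal CD29HCD24P and 12104 to 15829 in normal CD29PCD24H cells. Of these 17 genes, 6 were higher on all 6 tumor arrays than on all 4 normal arrays, against 6.78% of the 18193 genes on the array. Among the defining markers Col1a1 stood at 9.80 to 13.74 on tumor arrays and 5.39 to 7.44 on normal arrays, Col3a1 at 11.97 to 15.09 and 7.84 to 10.78, and Pdgfra at 7.90 to 10.21 and 7.34 to 8.43. Dcn ran the other way, with 8.63 to 12.32 on tumor and 12.89 to 13.13 on normal arrays. The CD29LCD24H array of tumor 2 had the highest fibroblast sum. The part of stromal cells in these results was not tested, and in sorted bulk cells fewer cells of a type and less RNA per cell cannot be told apart.

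Integrins include Itgb1, the antigen of the gate. Its transcript stood at 10.46 and 10.94 in normal CD29HCD24P and 10.27 and 9.52 in CD29PCD24H cells, and at 10.78, 9.02 and 12.58 in tumor CD29HCD24H and 9.91, 10.27 and 13.01 in CD29LCD24H cells. The normal gates did not overlap, the tumor gates did, and only tumor 1 had more Itgb1 transcript in the CD29 high gate. The difference of differences of Itgb1 was -1.07 ± 1.46 (SE, adjusted p = 0.832). Cd24a had gate differences of -0.92 and -1.41 in the preparations, where it was called, and of 0.23, -0.56 and -0.37 in the tumors. Of 12 integrin genes tested, 3 were higher in normal CD29HCD24P cells and 2 passed below 0, Itga1 with -2.87 ± 0.602 (SE, adjusted p = 0.0371) and Itga9 with -2.81 ± 0.602 (SE, adjusted p = 0.0403); 4 passed below 0 with the block. The list's median gate difference was 1.10 in normal cells and -0.18 in tumors.

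Of 25 lineage transcription factors tested, 3 were higher and 2 lower in normal CD29HCD24P cells, and only Foxa1 and Elf5 passed in the difference of differences, both above 0. With the block 3 passed above and 9 below 0. Trp63, the master regulator of basal cells, stood at 13.35 and 13.10 in normal CD29HCD24P and 7.62 and 8.13 in CD29PCD24H cells. In CD29HCD24H cells of tumors 1, 2 and 7 it stood at 12.88, 11.79 and 8.92 and in CD29LCD24H cells at 11.44, 11.57 and 7.79. Each tumor had more in the CD29HCD24H gate, by 1.44, 0.22 and 1.13, a mean of 0.93 that lay just under the limit for a kept gene. Its difference of differences was -4.42 with an adjusted p of 0.283 without and 1.46e-05 with the block. These values come from the brightest Trp63 probe set, the only one above 0 in each tumor. Another probe set had gate differences of 4.87 and 3.87 in the preparations and -0.02, -0.45 and 1.07 in tumors 1, 2 and 7. Snai2, a repressor of luminal genes in basal cells, stood at 14.40 and 13.48 in CD29HCD24H and 12.95 and 13.07 in CD29LCD24H cells of tumors 1 and 2, against normal basal values of 14.81 and 14.42, and at 7.03 in both gates of tumor 7, between the normal luminal values of 7.63 and 6.90. Id4, a basal inhibitor of DNA binding, split the tumors the same way, with 13.06 to 14.37 in tumors 1 and 2 and 6.23 and 7.54 in tumor 7. Neither was called between the normal gates without the block (adjusted p = 0.094 and 0.21), which fits 1 spread to all groups; with the block the adjusted p of the difference of differences was 5.19e-07 for Snai2 and 9.9e-06 for Id4.

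Among the luminal genes the hormone-sensing group had the largest median gate difference, -3.58 in normal cells against -0.07 in tumors. Of 7 members tested, 5 were lower in normal CD29HCD24P cells, 4 passed above 0 in the difference of differences and 6 did with the block. Esr1, the estrogen receptor, stood at 9.10 and 8.72 in normal CD29HCD24P and 13.69 and 13.18 in CD29PCD24H cells. In tumors 1, 2 and 7 it stood at 8.82, 6.86 and 7.06 in CD29HCD24H and at 8.70, 7.69 and 6.57 in CD29LCD24H cells. All 6 tumor values were below the first normal basal value, 5 were below the second as well, and the difference of differences was 4.46 ± 0.963 (SE, adjusted p = 0.0417).

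Foxa1, the pioneer factor of the estrogen receptor, did not follow Esr1 in level. It stood at 8.81 and 7.75 in normal CD29HCD24P and 13.90 and 13.79 in CD29PCD24H cells, and at 12.16, 12.06 and 11.86 in tumor CD29HCD24H and 11.99, 12.00 and 11.20 in CD29LCD24H cells. Every tumor array thus lay nearer the luminal than the basal level, in both gates, and the difference of differences was 5.86 ± 0.565 (SE, adjusted p = 0.00116). Prom1, a surface protein of hormone-sensing luminal cells, also stood at or near the luminal level of 13.25 and 12.77, with 12.70 to 14.01 on the tumor arrays and 3.37 ± 0.63 (SE, adjusted p = 0.0241). Pgr, the progesterone receptor, had gate differences of -3.40 and -3.76 in the preparations and 1.06, 0.26 and -0.19 in the tumors, and passed with the block only (adjusted p = 3.11e-05, against 0.405). Cxcl15, a chemokine, had 4.56 ± 0.82 (SE, adjusted p = 0.0197) and tumor levels of 5.70 to 7.35, against 12.18 and 11.84 in normal luminal cells.

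Of 11 luminal progenitor genes tested, 6 were lower in normal CD29HCD24P cells, 3 passed above 0 and 7 did with the block, with a median gate difference of -2.68 in normal cells and -0.17 in tumors. Elf5, the ETS factor of the alveolar lineage, stood at 6.67 and 6.82 in normal CD29HCD24P and 11.65 and 11.40 in CD29PCD24H cells. In the tumors it stood at 10.42, 9.85 and 11.98 in CD29HCD24H and 11.40, 9.93 and 11.79 in CD29LCD24H cells, so that both gates lay toward the luminal side; the difference of differences was 4.49 ± 0.93 (SE, adjusted p = 0.0359). Aldh1a3, which makes retinoic acid, had gate differences of -4.41 and -4.55 in the preparations and -1.02, 0.19 and 0.83 in the tumors, with 4.48 ± 0.59 (SE, adjusted p = 0.00666). Kit, the stem cell factor receptor, was higher in the CD29LCD24H gate of each tumor, by 0.52, 0.87 and 1.14, against 3.28 and 3.30 in the preparations, and its difference of differences of 2.45 passed with the block only (adjusted p = 0.00091, against 0.191).

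Of 9 ETS factors tested, 3 were lower in normal CD29HCD24P cells, and with the block 2 passed above and 1 below 0. Of the 3 lower, Ehf and Elf5 were the 2 that passed above 0 without it. Elf3, the third, had gate differences of -1.36 and -2.20 in the preparations and of -1.07, -0.60 and -0.41 in the tumors, and its difference of differences of 1.09 ± 0.508 (SE) had an adjusted p of 0.389, and of 0.141 with the block.

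Of 21 luminal epithelial genes tested, 11 were lower in normal CD29HCD24P cells, and 3 passed above 0; 11 did with the block. The median gate difference was -2.63 in normal cells and -0.39 in tumors. Krt7 and the claudins Cldn4 and Cldn7 belonged to the kept class, with mean tumor differences of -1.22, -1.60 and -1.22. Cldn4, a tight junction protein of luminal cells, stood at 9.46, 10.87 and 10.76 in tumor CD29HCD24H and 11.58, 11.74 and 12.58 in CD29LCD24H cells, against 9.12 and 8.33 in normal CD29HCD24P and 12.38 and 12.70 in CD29PCD24H cells. The tumor gates did not overlap, and the tumor difference was -2.12, -0.87 and -1.82. Its difference of differences was 2.22 ± 0.713 (SE, adjusted p = 0.168) without the block and passed with it (adjusted p = 0.00542), so that with the block the kept difference was also smaller than the normal one.

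Of 20 junction genes tested, 1 was higher and 10 were lower in normal CD29HCD24P cells, 4 passed above 0 in the difference of differences, and with the block 10 passed above and 2 below 0. The 4 were Cldn1, Pkp2, Marveld2 and Cgn. Pkp2, the desmosomal plakophilin, had 5.01 ± 0.884 (SE, adjusted p = 0.0188), with gate differences of -4.96 and -5.67 in the preparations and -0.77, -0.83 and 0.68 in the tumors. Cldn1, another claudin, stood at 12.25 and 12.04 in normal luminal and 6.97 and 7.24 in normal basal cells and at 8.53 to 10.64 on the tumor arrays, and had 4.63 ± 0.762 (SE, adjusted p = 0.0149). The list's median gate difference was -2.27 in normal cells and -0.44 in tumors.

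Among 12 epithelial keratins, 4 were higher and 3 lower in normal CD29HCD24P cells, and 1 passed on each side of 0: Krt15 below, and Krt4 above with 4.69 ± 0.808 (SE, adjusted p = 0.0176). With the block 5 passed above and 4 below 0. The luminal keratin Krt19 stood at 14.80 and 15.07 in normal CD29PCD24H and 11.26 and 11.20 in CD29HCD24P cells, and at 6.47, 5.45 and 9.57 in CD29HCD24H and 6.23, 5.44 and 9.42 in CD29LCD24H cells of tumors 1, 2 and 7. All 6 tumor values of Krt19 were below both normal gates. The luminal keratin Krt8 stood at 15.40 and 15.56 in tumor 7, near the normal luminal values of 15.46 and 15.49. In tumors 1 and 2 Krt8 stood at 10.89 to 13.36, below the normal basal values of 14.35 and 14.20. Krt18 stood at 11.40 to 14.00 on the tumor arrays. Its normal values were 12.20 and 12.42 in basal and 14.82 and 15.06 in luminal cells.

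Csn2, beta casein, stood at 14.57 and 13.81 in the CD29HCD24H and CD29LCD24H cells of tumor 7, at 10.29 and 9.70 in tumor 1, at 5.89 and 6.68 in tumor 2 and at 5.15 to 6.68 in normal cells. Of 11 milk and alveolar genes, 1 was lower in normal CD29HCD24P cells, and 0 passed in the difference of differences; 6 passed above 0 with the block. The 1 was Aqp5, a water channel of secretory epithelium, with gate differences of -4.88 and -4.79 in the preparations and -0.18, 0.60 and -0.60 in the tumors. Of 11 acute phase and innate defence genes, 2 were lower in normal CD29HCD24P cells, 1 passed above 0 (Cxcl15) and 5 did with the block.

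Signalling genes were taken by role. Of 23 Wnt genes, 8 were higher and 3 lower in normal CD29HCD24P cells, 4 passed below 0 and none above, and with the block 13 passed below and 2 above; the median gate difference was 1.83 in normal cells and -0.00 in tumors. Among the ligands Wnt10a had -3.38 ± 0.745 (SE, adjusted p = 0.0448), and Wnt4, made by hormone-sensing luminal cells, had 2.58 and passed with the block only (adjusted p = 0.0083, against 0.176). Lgr5, a receptor of R-spondins, had -3.16 ± 0.692 (SE, adjusted p = 0.0437), and the secreted Dkk3 had -4.93 ± 0.773 (SE, adjusted p = 0.0129). The Wnt inhibitor Wif1 stood at 9.22 to 12.95 on the tumor arrays in both gates, against 11.99 and 11.98 in normal basal and 5.82 and 6.02 in normal luminal cells, and passed with the block only (adjusted p = 9.31e-07, against 0.0846).

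Of 11 Notch genes, 2 were higher and 2 lower in normal CD29HCD24P cells. The ligand Dll1 alone passed without the block, with gate differences of 5.27 and 5.47 in the preparations and 1.12, 0.96 and 0.06 in the tumors and -4.65 ± 0.894 (SE, adjusted p = 0.0263); with the block 1 gene passed above and 4 below 0. Notch3, the receptor of luminal cells, was lower in the CD29HCD24H gate of each tumor, by 1.32, 0.51 and 0.78, and its difference of differences of 2.37 passed with the block only (adjusted p = 0.00134, against 0.316). Of 9 EGF receptor and ligand genes, 3 were higher and 3 lower in normal CD29HCD24P cells. In the difference of differences 2 passed above and 4 below 0 with the block, and 1 on each side without it. Ereg, the ligand epiregulin, passed below 0 with -5.07 ± 0.684 (SE, adjusted p = 0.0073), and the receptor Erbb3 passed above 0 with 3.53 ± 0.702 (SE, adjusted p = 0.0305). Erbb3 stood at 12.75 to 14.44 on the tumor arrays, around the normal luminal values of 13.51 and 13.23, and Ereg at 8.92 to 10.24, nearer the luminal values of 8.21 and 7.66 than the basal values of 12.99 and 12.74.

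**Figure D4:**
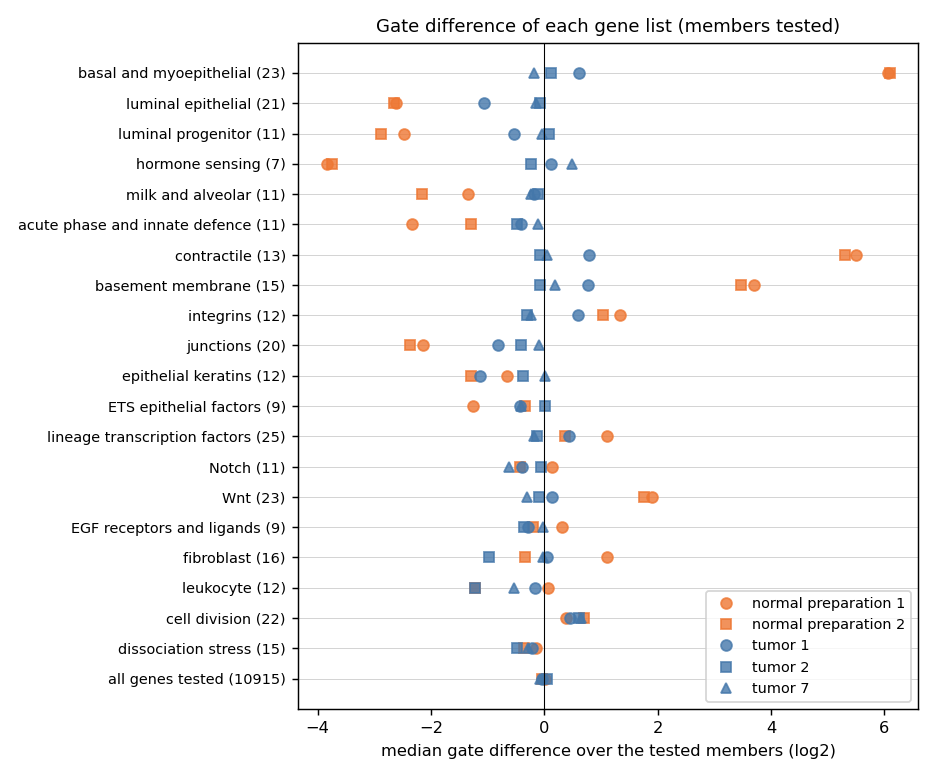
Median gate difference (log2, x axis) over the tested members of each gene list (y axis, number of members in brackets), with 1 symbol for each normal preparation and each tumor. The preparations reach 6.06 and 6.10 for basal genes and -3.84 and -3.76 for hormone-sensing genes, whereas the tumor medians lie between -1.22 and 0.79.

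The tumors differed in their list medians, and no tumor had the most of the normal direction in every list. The median gate difference of the basal and myoepithelial genes was 0.61 in tumor 1, 0.11 in tumor 2 and -0.18 in tumor 7, that of the contractile genes 0.79, -0.08 and 0.05, and that of the luminal epithelial genes -1.07, -0.08 and -0.14. In the hormone-sensing genes it was 0.12, -0.24 and 0.49, in the acute phase genes -0.41, -0.48 and -0.11, and in the milk genes -0.18, -0.12 and -0.24. The difference between tumors has no replicate and was not tested.

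To see where the lost genes had settled, each tumor array was placed between the normal low level of a gene (position 0) and its normal high level (position 1). For the 437 basal-side genes the median position was 0.576 and 0.487 in the CD29HCD24H and CD29LCD24H cells of tumor 1, 0.504 and 0.496 in tumor 2, and 0.317 and 0.339 in tumor 7. For the 387 luminal-side genes it was 0.331 and 0.513, 0.332 and 0.459, and 0.443 and 0.535. Tumor 7 thus had the lowest median positions of the basal genes and the highest of the luminal genes in each gate. On all 6 tumor arrays 60 basal-side and 60 luminal-side genes lay below position 0.25, and 32 and 45 lay above 0.75; these limits were chosen after values had been seen.

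Genes at the low end in both gates included Tenm2, a teneurin adhesion protein, which stood at 14.34 and 13.94 in normal CD29HCD24P cells, at 6.85 and 6.13 in CD29PCD24H cells and at 5.08 to 6.60 on the tumor arrays, with a difference of differences of -7.62 ± 0.73 (SE, adjusted p = 0.00116). Il17b, a cytokine, stood at 11.95 and 12.57 in normal basal cells and at 5.18 to 5.77 on the tumor arrays, and Oxtr, the oxytocin receptor through which milk ejection is triggered, at 12.59 and 12.38 and at 5.26 to 7.32. On the luminal side Upk3a, a uroplakin, stood at 14.02 and 13.77 in normal luminal cells and at 5.44 to 7.50 on the tumor arrays, below both normal basal values of 7.81 and 7.66. Upk3a had a difference of differences of 5.90 ± 0.805 (SE, adjusted p = 0.00783).

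Genes at the high end in both gates included the basal-side Igfbp4, an IGF binding protein, at 12.53 to 13.59 on the tumor arrays against 13.40 and 13.57 in normal basal and 8.23 and 9.62 in normal luminal cells. Mest, an imprinted gene, stood at 9.97 to 12.40 on the tumor arrays, above the normal basal values of 9.57 and 9.48, and Tnc, the matrix protein tenascin C, at 9.99 to 10.81, above 8.36 and 8.43. On the luminal side Gab2, a docking protein of receptor kinases, stood at 10.72 to 11.68, above the normal luminal values of 10.06 and 9.91, as Ehf did. In all, 10 basal-side and 14 luminal-side genes lay above the normal high level on all 6 tumor arrays, and 18 and 27 lay below the normal low level.

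**Figure D5:**
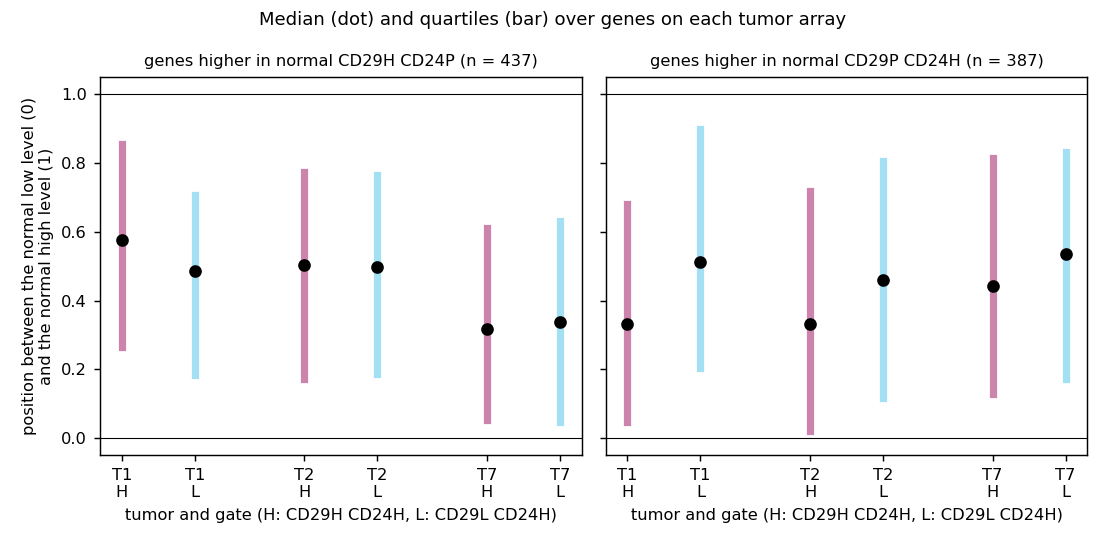
Position of the genes between their normal low (0) and high (1) level on the y axis, on each tumor array on the x axis, for the 437 basal-side genes (left) and the 387 luminal-side genes (right); dots are medians and bars quartiles over genes. Medians lie between 0.317 and 0.576, with tumor 7 lowest for the basal-side genes.

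The kept genes were mostly luminal. Over all genes tested, mean tumor differences of -1 or less were also more frequent (2.15%) than those of 1 or more (0.568%). The kept share was 6.98% on the luminal side and 0.686% on the basal side. Only 6 of the 824 kept a difference of at least 1 in each of the 3 tumors, all from the luminal side. They were Cysrt1, Fcgbp, Jchain, L1cam, Neat1 and Spns2. Of the same 824 genes, 0 reversed by at least 1 in each tumor. Among the 2322 genes called between the normal gates with the block, 8 luminal-side genes kept it in each tumor. Another 3 of the 2322, from the basal side, reversed by at least 1 in each tumor. How many of all genes tested passed 1 in each tumor was not counted, so these counts are descriptions only. Spns2, a transporter of sphingosine phosphate, stood at 8.38, 7.39 and 8.04 in CD29HCD24H and 10.22, 8.72 and 9.19 in CD29LCD24H cells of tumors 1, 2 and 7, against 7.46 and 7.04 in normal CD29HCD24P and 10.08 and 9.54 in CD29PCD24H cells. The gates did not overlap in either tissue. Its difference of differences was 1.12 ± 0.688 (SE, adjusted p = 0.567), which does not show that the gate differences are equal. Neat1, a nuclear long noncoding RNA, had gate differences of -1.27, -1.36 and -1.38 in the tumors and -2.16 and -2.62 in the preparations; another of its probe sets gave a difference of differences of -0.56 in place of 1.05. Cysrt1 had -1.46, -2.37 and -2.47 in the tumors and -1.91 and -4.69 in the preparations, and Fcgbp, a mucus-associated protein, had -2.32, -2.15 and -1.25 and -1.71 and -3.95. Without preparation 2 their difference of differences turned below 0, to -0.19 for each.

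Jchain, the joining chain of IgA and IgM made by plasma cells, had the largest kept difference, with -2.03, -3.62 and -1.74 in the tumors and -2.77 and -3.84 in the preparations. Beside it the heavy chain Igha had -2.71, -2.93 and -1.65 in the tumors and 0.43 and -1.03 in the preparations. The summed intensity of 18 leukocyte genes was 6873 to 21836 in tumor CD29HCD24H, 8761 to 51793 in tumor CD29LCD24H, 3421 to 4385 in normal CD29HCD24P and 10537 to 18743 in normal CD29PCD24H cells. Of the 18, the 2 macrophage genes Csf1r and Lyz2 were higher on all 6 tumor arrays than on all 4 normal arrays, against 6.78% of all genes on the array. Csf1r stood at 10.96 to 14.50 on tumor and 8.31 to 9.70 on normal arrays, and Lyz2 at 8.90 to 12.02 and 7.35 to 7.84. Ptprc stood at 8.47 to 10.90 on tumor and 7.41 to 9.57 on normal arrays, Cd79a at 6.08 to 7.18 and 5.51 to 6.87, and Cd3e at 5.48 to 6.69 and 5.44 to 6.05, near the lowest possible level. The part of leukocytes in the Jchain values was not tested.

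On the basal side Ankrd6, Drp2 and Rragd were the 3 kept genes, with mean tumor differences of 1.09, 1.06 and 1.01 against normal differences of 3.35, 2.38 and 3.15. None of them had a difference of at least 1 in each tumor. They were 0.686% of the 437 basal-side genes, near the 0.568% of all genes tested with a tumor difference of 1 or more. Reversal by at least 1 in the mean was seen in Sparc, Tenm3, Serpina3n and Iffo2 on the basal side and in Fgf13 on the luminal side. The basal-side share was 0.915%, against 2.15% of all genes tested with a tumor difference of -1 or less. On the luminal side it was 0.258%, against 0.568% of all genes tested with 1 or more. Fgf13, an intracellular FGF homologue, stood at 6.74 and 6.25 in normal CD29HCD24P and 10.72 and 10.47 in CD29PCD24H cells, and at 8.25, 6.44 and 7.27 in tumor CD29HCD24H and 7.34, 5.69 and 5.15 in CD29LCD24H cells. Each tumor had more Fgf13 in the CD29 high gate, by 0.92, 0.74 and 2.12, the reverse of normal cells, and the difference of differences was 5.36 ± 0.939 (SE, adjusted p = 0.0186).

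Tenm3, a teneurin, had gate differences of 4.18 and 3.84 in the preparations and -1.32, -1.59 and -0.28 in the tumors, with -5.08 ± 0.956 (SE, adjusted p = 0.0245). Serpina3n, a secreted protease inhibitor, had 4.08 and 3.94 and then -0.30, -1.47 and -1.42, with -5.07 ± 1.13 (SE, adjusted p = 0.0462), and Iffo2 had 2.15 and 1.73 and then -1.53, -0.37 and -2.09, with -3.27 ± 0.606 (SE, adjusted p = 0.0227). The tumor difference by itself passed for none of the 5 reversed genes, with or without the block. The next most opposite genes with the reversed sign in all 3 tumors were Cda, Adamtsl3, Igfbp7, Epas1, Irs2 and Prkar1b, with mean tumor differences that ran from -0.93 in Adamtsl3 to -0.88 in Prkar1b beside that of Cda, which lay just outside the reversed class. Igfbp7, a secreted IGF binding protein, had -4.53 ± 0.501 (SE, adjusted p = 0.00263), and Epas1, the oxygen-regulated factor HIF-2 alpha, had -2.99 ± 0.569 (SE, adjusted p = 0.025).

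Of the 7 genes that passed between the tumor gates with the block, Jchain alone was also called between the normal gates without it; the 7 were chosen for naming after their values were seen. The fit with the tumor or preparation as a random replicate block called 0 genes between the tumor gates, and quantile normalization before the fixed block gave 2. Gm12338 was higher in CD29HCD24H cells, and Igha, Jchain, Malat1, Rab6b, Sema3f and Tnfrsf12a were lower. Rab6b, a small GTPase of Golgi traffic, stood at 7.88, 9.16 and 8.30 in CD29HCD24H and 9.64, 13.58 and 12.58 in CD29LCD24H cells of tumors 1, 2 and 7, and at 7.75 to 8.81 on the normal arrays. Each tumor had more in the CD29 low gate, and the CD29HCD24H arrays lay closer to the normal values. Sema3f, a secreted semaphorin, had gate differences of -2.05, -2.59 and -4.54 in the tumors and 2.94 and 0.88 in the preparations, and a difference of differences of -4.97 that passed with the block only (adjusted p = 0.000164, against 0.0809). Tnfrsf12a, the TWEAK receptor, had -1.09, -1.49 and -1.60 in the tumors and 0.26 and 0.13 in the preparations. Malat1, another nuclear noncoding RNA, had -1.67, -1.91 and -1.73 in the tumors and 0.56 and -0.77 in the preparations, and another of its probe sets turned its difference of differences from -1.66 to 0.19.

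Lists of cell division, dissociation stress and other cell types were read in the same way. Of 22 cell division genes 0 passed between the normal gates and 0 in the difference of differences (limma without the block); with the block 4 were higher and 1 was lower in normal CD29HCD24P cells and 1, the replication helicase Mcm6, passed above 0 in the difference of differences. Their median gate difference was 0.58 in normal cells and 0.54 in tumors, on the CD29 high side in both tissues. Bub1b, a spindle checkpoint kinase, had 0.74 and 1.14 in the preparations and 0.76, 0.98 and 1.06 in the tumors. Of 15 dissociation stress genes 2, Jun and Klf6, were lower in normal CD29HCD24P cells, and 0 passed in the difference of differences without the block and 2 with it; their median gate difference was -0.29 in normal cells and -0.25 in tumors. Of 16 fibroblast genes tested, 3 were higher and 1 lower in normal CD29HCD24P cells. The 3 that passed below 0 in the difference of differences were Mmp2, Fbln2 and Postn, with -5.61, -4.97 and -4.05. In the blocked fit 1 passed above and 6 below 0. Of 12 leukocyte genes tested, 2 were lower in normal CD29HCD24P cells and 0 passed in the difference of differences without the block, with 1 on each side with it. Over all genes tested 6.15% passed above and 7.7% below 0 with the block, so the leukocyte counts there were near the share of all genes. Of the 3 endothelial and erythroid genes and the 1 adipocyte gene above the filter, 0 passed in any contrast, with or without the block. Of 11 endothelial and erythroid genes on the array, 3 (Cdh5, Kdr and Esam) were higher on all 6 tumor arrays than on all 4 normal arrays, and the list's summed intensity was 741 to 2702 on the tumor and 364 to 1230 on the normal arrays. Cdh5 stood at 6.24 to 8.43 on the tumor and 5.18 to 6.06 on the normal arrays, Kdr at 7.33 to 8.77 and 6.45 to 7.25, and Pecam1 at 5.25 to 5.84 and 5.09 to 5.30. Of 5 adipocyte and nerve sheath genes 1, Fabp4, was higher on every tumor array. The same held for 5 of 23 cell division genes and 1 of 15 dissociation stress genes. Over the 18193 genes on the array the share was 6.78%. The part of other cell types in the results was not tested.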

How the data were processed

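Affymetrix 3' expression arrays measured RNA that, per the labels' protocols, was extracted with the PicoPure kit, amplified in 2 cycles and labelled with biotin. The deposited values are linear signal intensities; per the submitters' processing notes the authors used GCOS, and each array has a 2% trimmed mean of 500. The labels name a reference RNA for normalization without saying how the authors applied it. Amplification and the 3' bias it brings can lower the signal of probe sets far from the 3' end.

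Of 45101 probe sets, 34945 carried 1 gene symbol in the platform annotation, 932 several and 9160 none, with 64 controls among the probe sets. The brightest probe set stood for each of 18193 genes, the 40% with the lowest mean were left out, and 10915 remained. Values were fitted as log2(intensity + 32) in limma 3.58.1 (R 4.3.3) with an intensity trend and Benjamini-Hochberg adjustment over all genes, with 4 groups and no block; the fit was tested on simulated data. Same-tumor arrays deviated together (correlations of 0.614 to 0.726 with the group means removed, against 0.0632 for arrays of 1 preparation). They carry the same tumor number in the labels, so a fit with the tumor or preparation as a block is printed beside many of the results it changes. Other alternatives were the offset, filter, normalization, probe set choice, trend, 17 arrays in 1 fit and leaving out arrays, tumors or preparations. Leaving out samples from the blocked fit and quantile normalization of it were chosen after seeing the data.

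The members and the 23 gene lists were chosen with earlier results of these data known. Genes were named by rule: Krt5, Ehf, Itgb1 and Cd24a; the 12 per direction with the largest difference of differences among called genes whose tumor and preparation values did not overlap; the 10 with the largest kept and the 10 with the most opposite tumor difference; and up to 6 per list with the largest normal difference. Genes given as examples of positions, of the kept or reversed classes' edges and of the cell division and stress lists were chosen after their values were seen. Plots come from Python 3.11.15 and its library matplotlib 3.10.9.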

Additional observations from a re-analysis of the deposited data

Results flagged for a closer look

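The gate difference of 250 genes differed between tumors and normal cells in a test of the difference itself (limma, adjusted p under 0.05), and 60 of them are named by rule. Groups of 2 or 3 arrays are too small to look for single outlying samples. Each value is the difference of differences on the log2 scale. Above 0, the difference was 6.05 for Smim38, 5.90 for Upk3a, 5.86 for Foxa1, 5.55 for Stc2, 5.45 for Tlcd4, 5.40 for Itih2, 5.36 for Fgf13 and 5.21 for AW112010. Next came 5.21 for Il33, 5.14 for Tspan1, 5.01 for Tnfaip2, 5.01 for Pkp2, 4.90 for Ehf, 4.69 for Krt4, 4.63 for Cldn1 and 4.56 for Cxcl15. The smallest of the named values above 0 were 4.49 for Elf5, 4.48 for Aldh1a3, 4.46 for Esr1, 4.14 for Tspan8, 3.96 for Marveld2, 3.53 for Erbb3, 3.37 for Cgn and 3.37 for Prom1.

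Below 0, the difference was -8.48 for Sparc, -7.72 for Myl9, -7.62 for Tenm2, -7.57 for Krt15, -7.11 for Cxcl14, -6.85 for Bgn, -6.79 for Col4a2, -6.75 for Myh11 and -6.74 for Igfbp2. It was -6.62 for Mylk, -6.57 for Il17b, -6.44 for Vcan, -6.19 for Tagln, -5.61 for Mmp2, -5.20 for Lama1, -5.08 for Tenm3, -5.07 for Serpina3n and -5.07 for Ereg. After these came -5.05 for Col7a1, -4.97 for Fbln2, -4.93 for Dkk3, -4.65 for Dll1, -4.53 for Igfbp7, -4.29 for Col4a1, -4.19 for Lama3, -4.05 for Postn and -3.53 for Cda. Further values were -3.38 for Wnt10a, -3.36 for Irs2, -3.27 for Iffo2, -3.16 for Lgr5, -2.99 for Epas1, -2.87 for Itga1, -2.81 for Itga9, -2.79 for Adamtsl3 and -2.58 for Prkar1b.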

How the results depend on the processing

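Without the block, the difference of differences called 250 genes, the normal gates 824 and the tumor gates 0; all 250 were called between the normal gates with the opposite sign. With the tumor or preparation as a replicate block the counts were 1512, 2322 and 7, with 1367 normal genes smaller or opposite in tumors; as a random replicate block they were 1282, 2115 and 0, with 1167. Leaving out 60% of the genes gave 130 and 480, with 130 smaller or opposite, and testing each probe set gave 397 and 1241, with 396. Quantile normalization of the blocked fit left 2 genes between the tumor gates. Leaving out an array, a tumor or a preparation gave 0 to 436 genes in the difference of differences, 1 to 1384 between the normal gates, 0 between the tumor gates and 0 to 434 smaller or opposite. In the blocked fit the ranges were 665 to 1679, 1051 to 2680, 1 to 38 and 638 to 1459. The share of normal genes lost in tumors ran from 84.5% to 100%, kept from 0% to 14.8% and reversed from 0% to 3.35%. The ends of 100% and 0% came only from leaving out a preparation, where the share was taken over 1 gene and says nothing about the classes. In the other settings the lost share was at most 98.5%, the kept share at least 1.40% and the reversed share at least 0.108%, each with the higher offset. An axis threshold of 1 gave a median of 0.16 in tumor 1. A lower and a higher offset, quantile normalization, a median shift, no filter, mean probe sets, no trend and 17 arrays gave 174 to 341 genes. The median shift moved the median tumor gate difference of all genes from -0.02 to 0.12, and 223 genes were called.

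Of 3443 alternative values of the named genes, 3437 kept their sign and 6 turned. Many of these genes were named for a large difference, and adding the block or leaving out the trend does not change the estimate of a gene. For much of this count a kept sign was therefore fixed or likely beforehand, so the count is a weak check. Fcgbp was -0.0791 with an offset of 1; Neat1 was -0.56 and Malat1 0.19 by another probe set. Leaving out samples gave Cysrt1 -0.19 to 2.59, Fcgbp -0.19 to 2.04 and Csn1s1 -0.13 to 3.98. The cause was not tested. Of the 60 named genes called, none was called without preparation 1 or without preparation 2 (54 and 56 were tested and the other 6 and 4 fell below the filter), and 19, 18 and 1 lost the call without tumors 1, 2 and 7. The number of arrays, 2 in each normal group, limits the precision, and probe sets near the lowest possible level of 5 give only a bound on a difference.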
